A study of Mus musculus with 6 samples.

Results

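The choroid plexus epithelium is a single layer of cells on a vascular stroma inside the brain ventricles. It secretes cerebrospinal fluid by moving ions and water from blood to ventricle, seals the blood to fluid barrier with tight junctions, and releases carrier proteins such as transthyretin. One of these plexuses borders the hippocampus along the choroidal fissure. The cells described here were found by a marker gate in single-cell RNA sequencing of hippocampus from old mice. A gate member had a summed level of Htr2c, Otx2os1, Enpp2 and Ttr of at least 40 UMIs (counted transcript molecules) per 10000 UMIs of the cell, with at least 3 Htr2c UMIs and at least 1 Otx2os1 UMI. Of 50287 cells kept, 195 were members, and 193 of these lay in the air libraries.

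The study exposed elderly mice to sevoflurane, an inhaled anaesthetic, at 2% for 6 h, or to air, and took the hippocampus 24 h later. There were 3 sevoflurane libraries and 3 air libraries, for which the labels give hippocampus as the tissue and no strain, age in months or sex. The tissue was digested with collagenase, filtered, frozen as a cell suspension and thawed before 10x Genomics 3' library preparation. Cells kept had at least 500 UMIs, at least 300 genes and at most 20% mitochondrial UMIs. This left 9758, 8609 and 8734 cells in sevoflurane 1, 2 and 3, and 7042, 8705 and 7439 in air 1, 2 and 3. One library stood apart in a way the labels do not give: Xist was at 1398 CPM (UMIs per 1000000 UMIs) in sevoflurane 1 and at most 1.21 CPM in the other 5 libraries, while Ddx3y, on the Y chromosome, was at 0.282 CPM there and at 44.1 to 58.0 CPM in the others. At most 0.333% of barcodes were shared between any 2 libraries, and 1 member's barcode also occurred in another library.

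The gate genes name well-known products of this epithelium. Htr2c encodes a serotonin receptor, Enpp2 encodes autotaxin, a secreted enzyme that makes lysophosphatidic acid, and Ttr encodes transthyretin, the carrier of thyroxine and of retinol-binding protein in cerebrospinal fluid. Otx2os1 is a non-coding transcript read opposite to Otx2, which encodes a homeodomain factor that choroid plexus development requires. The sources used here do not state whether counting used strand, so reads shared by Otx2 and Otx2os1 cannot be told apart. The gate genes chose the members, so their levels are given as a description with no test.

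In the air members, Htr2c was at 12316, 15011 and 10120 CPM in air 1, 2 and 3, against 70.6, 72.4 and 83.2 CPM in all other kept cells of the same libraries. Otx2os1 was at 2601, 2657 and 2682 CPM in members and at 1.20, 1.51 and 3.01 CPM in the other cells. Enpp2 stood at 7502, 10618 and 6026 CPM, against 98.5, 99.3 and 116 CPM. These 3 genes differed between the air libraries by less than 2-fold in members. Ttr was less even, with 3732, 5973 and 10378 CPM in members and 136, 63.0 and 389 CPM in the other cells. A single member of air 3 held 2812 Ttr UMIs, while the median member of that library held 24.

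The sequence below is the promoter window of Otx2, whose level in members is given further on, shown because Otx2 is a regulator of this epithelium and was higher in members. It is from RefSeq on GRCm38.p6, chr14:48665060-48665359, minus strand, read 5′ to 3′, and the capitals mark the core letters bound by OTX-type homeodomain proteins (TAATCC, or GGATTA on the other strand).
Otx2: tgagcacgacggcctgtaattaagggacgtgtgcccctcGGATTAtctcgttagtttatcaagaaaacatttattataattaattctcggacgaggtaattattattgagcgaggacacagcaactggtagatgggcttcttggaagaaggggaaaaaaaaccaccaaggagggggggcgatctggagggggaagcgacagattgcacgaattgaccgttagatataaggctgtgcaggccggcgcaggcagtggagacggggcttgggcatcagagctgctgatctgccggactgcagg
Windows with these letters were found for 8.38% of the 1646 genes called higher in members that matched the table, for 7.21% of all 12962 tested genes that matched and for 8.14% of the 27025 genes in the table. A match is a description of letters, not a binding site.

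Members were found almost wholly in the air libraries. Sevoflurane 1, 2 and 3 held 0, 2 and 0 members, or 0, 0.0232 and 0% of kept cells, and air 1, 2 and 3 held 64, 16 and 113, or 0.909, 0.184 and 1.52%. The exact 95% binomial intervals were 0.701 to 1.16%, 0.105 to 0.298% and 1.25 to 1.82% in the air libraries, and 0.00281 to 0.0839% in sevoflurane 2. In sevoflurane 1 and 3 the upper limits of the exact intervals were 0.0378 and 0.0422%, and a limit of 3 counts for a count of 0 gives 0.0307 and 0.0343%. These intervals and limits cover counting error only. No sevoflurane library reached the lowest air library. The air libraries themselves differed: the share in air 3 was above that in air 1, and both were above air 2, with intervals that did not overlap.

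The mean share was 0.00774 ± 0.0134% in sevoflurane and 0.871 ± 0.668% in air (SD, n = 3 each), a difference of -0.863 percentage points. A two-sided exact permutation test gave p = 0.1, which is the smallest p that 3 against 3 libraries allow. The direction was known when the cells were chosen. Under 12 other gates, cell filters or denominators, the difference lay between -0.756 and -0.913 points. A further gate used none of the 4 genes and took cells with at least 5 of 21 other listed identity genes detected. Otx2, which could share reads with Otx2os1, was among the 21. This gate found 5, 4 and 2 cells in the sevoflurane libraries and 66, 21 and 125 in the air libraries. The 11 sevoflurane cells it found were not members, and those of sevoflurane 1, 2 and 3 had median depths of 11590, 31540 and 24522 UMIs and median gate sums of 0.527, 4.32 and 3.31 per 10000.

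**Figure D1:**
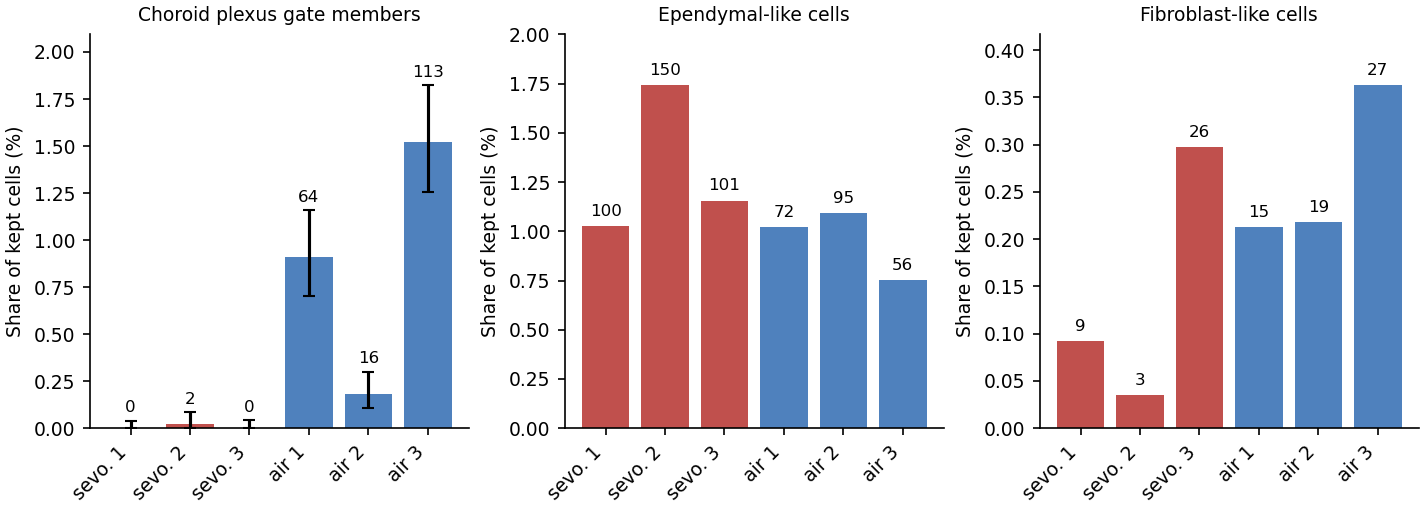
Share of kept cells per library (%, y axis) for gate members, ependymal-like cells and fibroblast-like cells, with the number of cells above each bar; sevoflurane libraries are red and air libraries blue, and error bars on the members are exact 95% binomial intervals. Members number 0, 2 and 0 in sevoflurane and 64, 16 and 113 in air, while ependymal-like cells number 100, 150 and 101 in sevoflurane and 72, 95 and 56 in air.

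Shares of other classes overlapped between the groups. Ependymal-like cells, which line the ventricle wall with motile cilia, were chosen by a sum of at least 40 per 10000 UMIs over Dnah12, Dnah9, Cfap299, Cfap54 and Spag17 with at least 3 detected. They made up 1.31 ± 0.382% of sevoflurane cells and 0.955 ± 0.179% of air cells (SD, n = 3 each; exact permutation p = 0.2). Fibroblast-like cells numbered 9, 3 and 26 in sevoflurane and 15, 19 and 27 in air (exact permutation p = 0.3). Microglia-like and endothelial-like cells, chosen in the same way from their own markers, gave exact permutation p = 0.4 and p = 0.7 (n = 3 each). These 4 p-values are unadjusted.

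Ttr outside the members moved with the member count. Other kept cells carried 0.0164, 0.0172 and 0.0184 Ttr UMIs per cell in the sevoflurane libraries, against 1.05, 0.496 and 2.89 in the air libraries. The order within air was the order of the member counts. Microglia-like cells, which should lack Ttr, held a Ttr UMI in 1.90, 0.680 and 0.535% of cells in sevoflurane and in 52.2, 37.4 and 89.9% in air, at median depths of 1957 to 2311 UMIs and 1969 to 2147 UMIs. Cells that reached the gate sum with under 3 Htr2c UMIs numbered 6, 0 and 2 in sevoflurane and 16, 11 and 179 in air. The 179 in air 3 had a median of 1482 UMIs, 75% of their gate UMIs from Ttr and none of the 21 other identity genes at the median. With Ttr left out of the sum, 1 sevoflurane cell and 187 air cells were members. Their part in the member counts was not tested.

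The 2 members of sevoflurane 2 went against the label. The first had 2813 UMIs and a gate sum of 71.1 per 10000, with 3 Htr2c, 3 Otx2os1, 3 Enpp2 and 11 Ttr UMIs. The second had 10106 UMIs and a sum of 42.5, made up of 42 Htr2c UMIs and 1 Otx2os1 UMI, with Enpp2 and Ttr at 0. They had 6 and 5 UMIs of Trpm3, an identity gene that is outside the 21 counted here. Each had 1 of the other 21 identity genes, a single UMI of Col8a1, and neither had a UMI of Clic6, Otx2, Slc4a5 or Tmem72. Air members had a median of 12 of 21, from 2 to 20, and 191 of 193 had at least 5. The second cell also carried 299 UMIs of 12 neuron markers, and the first carried 16. Expression between sevoflurane and air was not compared within members.

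The gate limit fell in a thin region. Of the 286 cells with at least 3 Htr2c UMIs and 1 Otx2os1 UMI, 9 had sums between 40 and 80 and 6 had sums between 20 and 40. The nearest inside the limit were at 42.1 (air 3, 67205 UMIs), 42.5 (sevoflurane 2) and 42.8 (air 1, 29935 UMIs), and the nearest outside at 32.1 (air 2) and 28.7 (sevoflurane 1). The median air member lay far above it, at 299.

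**Figure D2:**
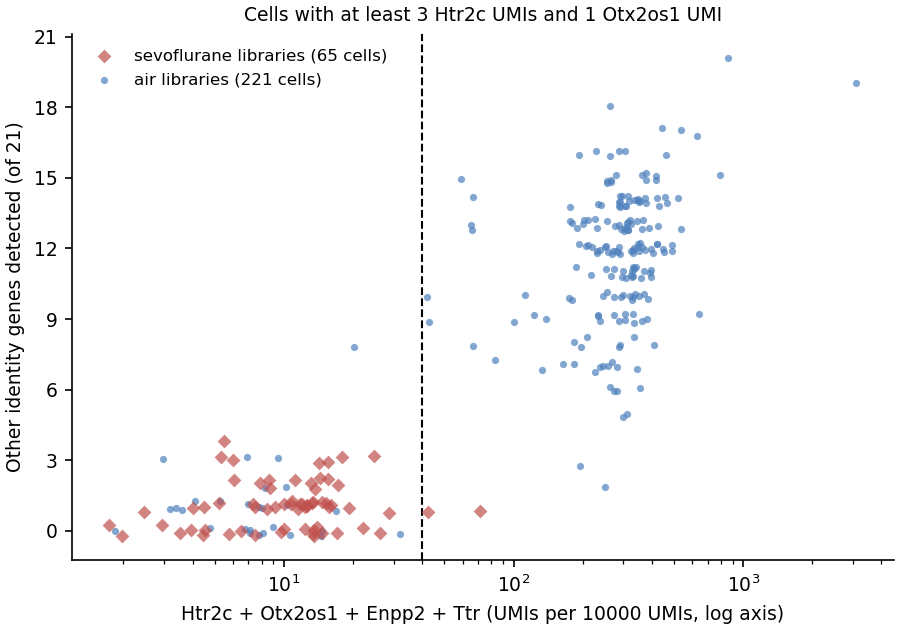
Each point is 1 cell with at least 3 Htr2c UMIs and 1 Otx2os1 UMI; the x axis is the gate sum (UMIs per 10000 UMIs, log axis, dashed line at 40) and the y axis is the number of 21 other identity genes detected, with points spread slightly up and down. Members of the air libraries have a median of 12 identity genes, while both members of sevoflurane 2 (diamonds right of the line) have 1.

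Identity was therefore described in the 193 air members, by summing UMIs over members within each library and comparing these sums with those of all other kept cells of the same library (edgeR, library as a block, n = 3). Of 17772 genes tested, 2142 (12.1%) were higher in members and 3752 (21.1%) were lower, 33.2% in all, at a Benjamini-Hochberg adjusted p under 0.05. This split depends on the scaling. TMM scaling set the median log2 fold change of all genes tested at -0.30, size factors from the RLE method set it at -0.19 and plain library totals at 0.21. With library totals, 3912 genes were higher and 1994 lower (66.2% higher, against 36.3% with TMM). Without air 1 the calls fell to 3321 and without air 3 to 3509 in both directions together.

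The identity list outside the gate genes held 22 genes, and 21 of them were higher in members, with a median log2 fold change of 5.73. Tmem72 was at 567, 838 and 503 CPM in members of air 1, 2 and 3 and at 0.555, 0.395 and 1.06 CPM in other cells (log2 fold change 9.28 ± 0.27, SE). Clic6, of the chloride intracellular channel family, was at 611, 694 and 559 CPM against 1.22, 1.21 and 2.55 CPM (7.99 ± 0.26). Col8a1, a short-chain collagen, was at 1383, 2179 and 1311 CPM against 4.11, 4.31 and 6.97 CPM (7.73 ± 0.41). In all 3 genes the lowest of the member values was more than 100 times the highest value of the other cells.

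Trpm3, a calcium-permeable channel whose gene hosts a microRNA of this epithelium, is a marker of these cells that the gate did not use. It was at 19068, 18506 and 17130 CPM in members and at 988, 921 and 966 CPM in other cells (3.68 ± 0.78). The direction held without each library, but the call was lost without air 1 (3.72, adjusted p = 0.31) and without air 3 (3.67, adjusted p = 0.087). The summed identity list, which includes Trpm3, was higher in fibroblast-like cells, at 31463 and 26945 CPM in air 1 and 2. Members there were at 25188 and 26276 CPM. Fibroblast-like cells had 7 and 5 of the 22 genes detected, against 22 and 21 in members. A high sum over this list is therefore not particular to members. Kl encodes klotho, a transmembrane protein also shed into cerebrospinal fluid, and was at 542, 467 and 446 CPM against 8.89, 9.69 and 13.3 CPM. Wfikkn2 was the identity gene that did not pass, with 2, 2 and 0 UMIs in the members of air 1, 2 and 3 (2.33 ± 1.03, adjusted p = 0.069). Aqp1, the water channel of this epithelium, was sparse, at 11, 0 and 19.6 CPM in members and 0.407, 0.438 and 0.789 CPM in other cells (4.04 ± 0.60), and its call was lost without air 3 (3.80, adjusted p = 0.065).

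Shares of cells with a UMI separated members from other classes too. With every cell thinned to 2000 UMIs, 185 of 193 members, 213 of 223 ependymal-like cells and 280 of 520 microglia-like cells of the air libraries remained. Col8a1 had a UMI in 86.5% of members and in none of the ependymal-like or microglia-like cells. Tmem72 had one in 67.6, 0 and 0.357% of these 3 classes, Clic6 in 71.4, 6.57 and 1.07%, and Otx2 in 50.8, 7.51 and 0%. Ttr had one in 98.9, 41.8 and 52.1%, and the microglia-like share is the level in cells that should lack the gene (median 1969 to 2147 UMIs per library, against 4721 to 5312 in members).

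Most of the listed transcription factors were higher in members than in other kept cells. For this list and those below, the shares over all genes tested were 12.1% higher and 21.1% lower. Of 10 listed factors 9 were tested, 7 were higher and 1 was lower. Otx2 was at 353, 239 and 289 CPM in members and at 0.389, 0.628 and 1.47 CPM in other cells (7.93 ± 0.22). Otx2 could share reads with the gate gene Otx2os1, so its level may not be independent of the gate. Lmx1a, a roof plate regulator, was at 375, 395 and 286 CPM against 0.611, 0.541 and 0.624 CPM (8.60 ± 0.22). Msx1 was higher by 5.19 ± 0.25 and Zic1 by 2.40 ± 0.35. Rfx3, a regulator of cilium genes, was at 953, 946 and 1328 CPM in members and at 568, 652 and 570 CPM in other cells and did not pass (0.28 ± 0.35).

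Of the listed receptors and channels, 10 of 14 were higher and 1 was lower. In sum this list was higher in fibroblast-like cells of air 1 and 2 (31521 and 27244 CPM) than in members (21182 and 20925 CPM). Prlr, the prolactin receptor, was at 821, 575 and 846 CPM in members and at 12.8, 12.4 and 14.1 CPM in other cells (5.28 ± 0.27). Folr1, the folate receptor that carries folate into cerebrospinal fluid, was higher by 6.26 ± 0.25. Trpv4, an osmosensitive cation channel, was higher by 6.86 ± 0.25, and the potassium channel gene Kcnj13 and the channel subunit gene Kcne2 by 4.32 ± 0.19 and 7.02 ± 0.40. Lepr, the leptin receptor, was at 131, 215 and 97.9 CPM against 3.80, 2.73 and 3.96 CPM. Insr, the insulin receptor gene, was at 170, 144 and 158 CPM against 131, 125 and 125 CPM and did not pass (-0.21 ± 0.21 after TMM scaling).

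Of 15 ion and water transport genes, 9 were higher and 2 lower. Slc4a5, a sodium bicarbonate cotransporter, was at 367, 575 and 312 CPM in members and at 0.50, 0.438 and 0.569 CPM in other cells (9.04 ± 0.23). Slc12a2, the sodium, potassium and chloride cotransporter, was at 821, 730 and 556 CPM against 84.8, 78.5 and 77.7 CPM (2.54 ± 0.25). Slc4a2, Car14 and Car12, an anion exchanger and a pair of carbonic anhydrases, were higher by 4.01 ± 0.19, 4.12 ± 0.28 and 2.74 ± 0.18. Atp1b1, a sodium pump subunit gene, did not pass (0.19 ± 0.30), although its CPM in members was above that of other cells in each library. Slc4a7, a sodium bicarbonate cotransporter gene, was lower (-1.09 ± 0.22), and its call was lost without air 1 (-0.86). With library totals the list gave 12 higher and 1 lower.

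Solute carriers of the blood to fluid barrier gave 11 of 15 higher and none lower. Their summed level was higher still in endothelial-like cells, at 4744 and 5110 CPM in air 1 and 2. Fibroblast-like cells were at 4675 and 3331 CPM and members at 3061 and 3567 CPM. A high sum over this list is therefore not particular to members. Slco1c1, a thyroxine carrier, was at 348, 431 and 409 CPM in members and at 42.4, 45.8 and 32.2 CPM in other cells (2.78 ± 0.20). Slc23a2, the vitamin C transporter, was higher by 1.79 ± 0.23, Slc31a1, for copper, by 2.80 ± 0.20, and Slc13a4, for sulfate, by 5.99 ± 0.20. Slco1a5 was higher by 6.52 ± 0.44, with the caution that close paralogs of this family could share reads. The glucose transporter gene Slc2a1 was at 43.8, 23.9 and 43.1 CPM in members and at 39.2, 26.2 and 29.8 CPM in other cells and did not pass (-0.16 ± 0.25). In the list for thyroid hormone and retinoid handling, which shares Slco1c1 with the solute carriers, 4 of 13 were higher, among them the retinol dehydrogenase gene Rdh5 (5.46 ± 0.21), and the thyroid hormone receptor gene Thra was lower (-0.99 ± 0.22). The call for Thra was lost without air 1 (-0.85) and with library totals (-0.46).

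Secreted products were higher for 11 of 14 genes tested, out of 15 listed, and lower for none. Bmp6, a bone morphogenetic protein, was at 329, 419 and 517 CPM in members and at 12.4, 10.8 and 18.6 CPM in other cells (4.34 ± 0.21). Col9a3 was at 884, 946 and 757 CPM against 4.13, 4.02 and 4.73 CPM (7.07 ± 0.30). F5, a coagulation factor, was higher by 6.64 ± 0.27 and Igfbp2, which binds insulin-like growth factors, by 3.45 ± 0.24. Igf2 itself was not tested, with 0, 0 and 4 UMIs in members. Cst3 did not pass (0.34 ± 0.22).

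Junction and polarity genes were higher for 11 of 15 and lower for 2. The higher call of Cldn3 was lost without air 1, 2 or 3 (adjusted p = 0.21, 0.39 and 0.16). That of Marveld2 was lost without air 1 (adjusted p = 0.82) and in DESeq2 (adjusted p = 0.17). Cldn2, the pore-forming claudin of leaky epithelia, was at 107, 95.8 and 82.3 CPM in members and at 0.241, 0.175 and 0.825 CPM in other cells (7.20 ± 0.39). Cldn1 was higher by 4.72 ± 0.41, the keratin gene Krt18 by 7.15 ± 0.50, and Ezr, which links membrane to actin, by 3.84 ± 0.18. Tjp1 and Cdh2 were lower (-2.24 ± 0.30 and -1.65 ± 0.27). By contrast 17 of 18 nuclear genes of the respiratory chain did not pass, with Ndufa4 higher (0.47 ± 0.19; call lost without air 1, at 0.81, and without air 3, at 0.44). With library totals 11 of 18 were higher, so no direction is given for this list.

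Of the 15 genes with the largest rises, 8 were on none of the lists. Gmnc, a regulator of the multiciliated cell programme, was at 835, 1293 and 860 CPM in members and at 3.39, 3.29 and 4.22 CPM in other cells (7.49 ± 0.32). Rbm47, an RNA-binding protein gene of epithelia, was at 904, 1436 and 944 CPM against 6.50, 3.74 and 5.74 CPM (7.09 ± 0.33). Gm14051, Wdr86, Tc2n, Col4a3, Wdr72 and Oca2 were higher by 7.17 to 8.60. The 5 largest falls were in Gm32647, Adarb2, Prr16, Dab1 and Ptchd4 (-4.73 to -3.42).

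**Figure D3:**
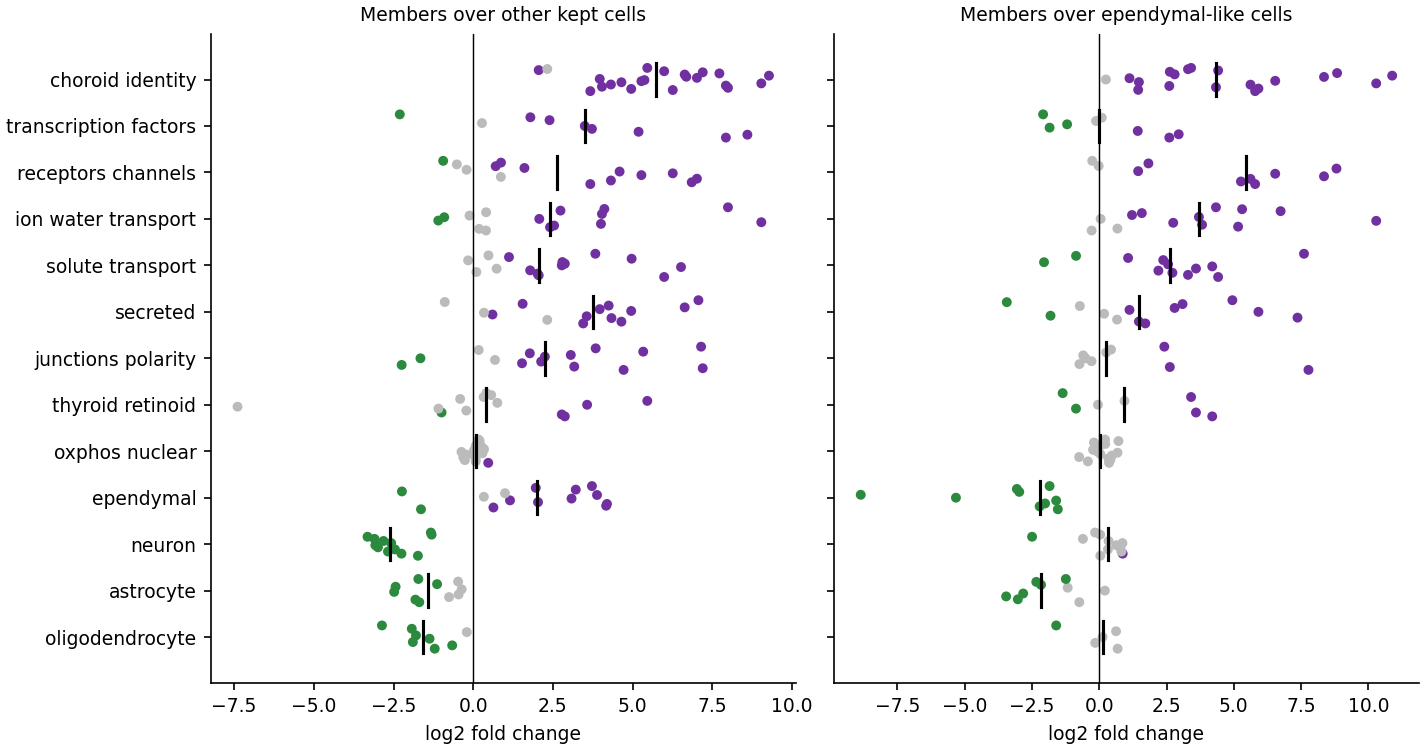
Log2 fold changes of listed genes (x axis) for members over other kept cells (left) and members over ependymal-like cells (right) in the 3 air libraries, grouped by gene list down the page; purple points passed as higher, green as lower and grey did not pass, and black bars are medians. The identity list has its median at 5.73 on the left and the 12 neuron markers lie below 0 on the left.

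Neuron markers were lower in members but not absent. All 12 listed neuron markers were lower than in the other kept cells, with a median log2 fold change of -2.62, but without air 1 only 3 of 12 passed. Against ependymal-like cells the 12 markers had a median log2 fold change of 0.33. In that comparison 10 were not called, 1 was lower and 1 higher (Syt1, lost without air 1 and without air 3). Of all genes tested there, 18.7% were lower and 13.6% higher. The summed level of the neuron markers in members was 8762, 3424 and 11704 CPM in air 1, 2 and 3, against 34019, 35995 and 34804 CPM in other kept cells. The level was uneven among members. Of the air members, 179 had 2.17 to 93.2 neuron marker UMIs per 10000 and 14 had 194 to 371, with none between. The 14 had 8149 to 67205 UMIs (median 15404) and the 179 had 1135 to 10812 (median 4766), and air 2 had none of the 14. Other kept cells had medians of 303, 342 and 332 neuron marker UMIs per 10000.

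**Figure D4:**
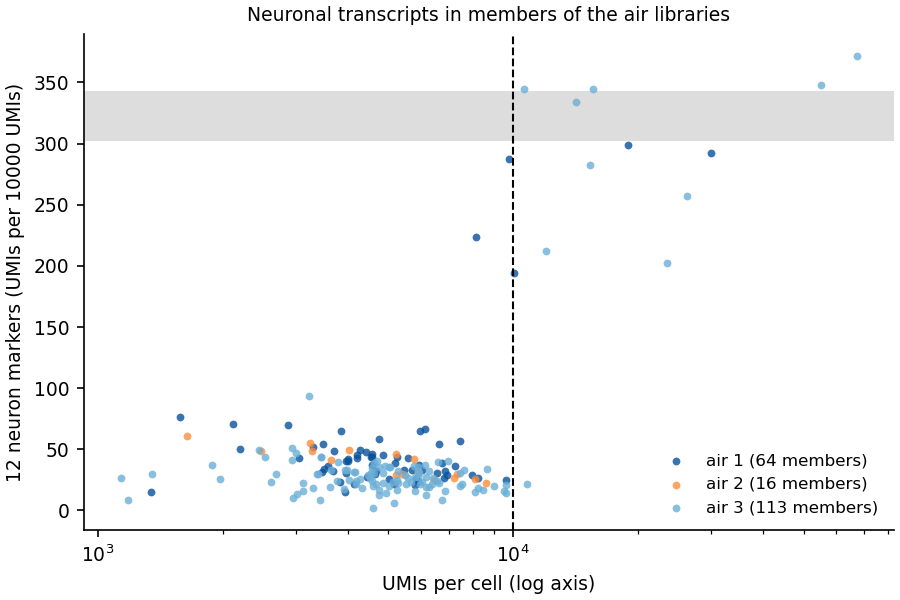
Each point is 1 member of an air library; the x axis is its UMI total (log axis, dashed line at 10000) and the y axis the summed level of 12 neuron markers (UMIs per 10000 UMIs), with the range of medians of other kept cells as a grey band. A set of 14 members lies at 194 to 371, near the band, and the other 179 lie at or under 93.2.

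With members of at least 10000 UMIs left out, 61, 16 and 103 members remained. Then all 22 identity genes were higher (13.1% of all genes tested were) and all 12 neuron and all 10 astrocyte markers were lower (22.4% of all genes were), against 6 of 10 astrocyte markers with all members in. The highest doublet scores in each library, a fixed share taken by rank, marked 6 of 64, 11 of 16 and 18 of 113 members of air 1, 2 and 3, and 5.64, 6.96 and 5.96% of all kept cells there. The part of cell multiplets in these levels was not tested.

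Markers of other cell types differed by list. Of the oligodendrocyte list 7 of 8 were lower. Of the endothelial list 5 of 7 were lower and 2 higher, but 1 was lower without air 1, 3 without air 3 or with library totals, and 2 in DESeq2. The summed oligodendrocyte list stood at 503 to 748 CPM in members and 951 to 1294 CPM in other cells, while the summed endothelial list was above other cells in each air library, at 441, 347 and 674 CPM in members and 194, 113 and 134 CPM in other cells. Mecom and Slco1a4 from the endothelial list were higher (3.20 ± 0.21 and 2.08 ± 0.19), while Flt1, Cldn5 and Adgrl4, which define endothelium, were at 0 to 16.4 CPM in members. Without air 1 the lower calls of Cldn5, Adgrl4, Ly6c1 and Pecam1 were lost (adjusted p = 0.084, 0.096, 0.27 and 0.21), and without air 3 those of Cldn5 and Pecam1 (adjusted p = 0.19 and 0.69). Close paralogs of Slco1a4 could share its reads. Of 7 microglia markers, Cx3cr1 was higher (2.64 ± 0.20), at 129, 108 and 140 CPM in members and 14.4, 16.9 and 14.1 CPM in other cells. The summed microglia list was also above other cells in each air library, at 249, 204 and 231 CPM in members and 130, 138 and 115 CPM in other cells, and P2ry12 was lower (-1.08 ± 0.27; with library totals -0.57 and not called). The part of these other cell types in the members' levels was not tested. Of the border macrophage list, Pf4, Lyve1 and Ms4a7 were at 0 in members of all 3 air libraries. Of 8 fibroblast markers Col1a2 and Bnc2 were higher (1.65 ± 0.46 and 1.08 ± 0.32), and both were at 0 in the members of air 2. Neither is stable: without air 1, Col1a2 was at 1.20 and did not pass, and without air 3, Bnc2 was at -0.75 and did not pass.

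Ependymal-like cells were taken as the closer comparison, since both cell types face the ventricle. No measure of likeness between classes was computed. Against the 223 ependymal-like cells of the air libraries, 7115 genes were tested, of which 968 (13.6%) were higher in members and 1334 (18.7%) were lower, 32.4% in all. Without air 3, 1147 genes passed in both directions together and without air 1, 1242, against 2302 with all libraries. Of 19 identity genes tested out of 22, 18 were higher, with a median log2 fold change of 4.34 against 0.02 for all genes. Tmem72 and Slc4a5 had no UMI in ependymal-like cells and were at least 181-fold and at least 115-fold higher in members, taking 3 UMIs over the group as the floor. Lepr, Wdr72, Wdr86 and Kcne2, also at 0 there, were at least 38.6-fold, 44.7-fold, 44.9-fold and 26.0-fold higher. Col8a1 had 3 UMIs in ependymal-like cells, which gives a ratio of 463 (158 to 2249, counting error only).

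Some identity genes were shared with ependymal-like cells. Calml4 was at 104, 156 and 91.4 CPM in members and at 67.5, 66.3 and 128 CPM in ependymal-like cells and did not pass (0.25 ± 0.32). Otx2 was at 353, 239 and 289 CPM against 12.8, 36.6 and 100 CPM (2.60 ± 0.43), and Folr1 at 153, 192 and 146 CPM against 67.5, 52.6 and 48.0 CPM (1.45 ± 0.27). The call for Folr1 was lost without air 3 (1.36, adjusted p = 0.060). Ion transport genes were higher for 10 of 13 tested and receptors and channels for 8 of 10, with none lower. Atp2b3, a calcium pump of the plasma membrane, was at 808, 1125 and 718 CPM against 32.1, 25.2 and 12 CPM (5.16 ± 0.34). Slc4a10, a sodium-driven bicarbonate transporter, was at 2497, 3412 and 2085 CPM against 225, 224 and 136 CPM (3.70 ± 0.29). Other lists were less one-sided here. Of 8 transcription factors tested, 3 were higher and 3 lower, with a median log2 fold change of -0.01. Junction and polarity genes were higher for 3 of 9 and lower for none (median 0.26). Secreted products were higher for 8 of 13 and lower for 2, and solute carriers for 10 and 2 of 12. Over all genes tested, 13.6% were higher and 18.7% lower. Lower in members were the glucose transporter gene Slc2a1 (-2.05 ± 0.28), Cp, the copper-binding ferroxidase gene (-3.44 ± 0.42), and Clu (-1.81 ± 0.25), and 6 of 9 astrocyte markers (3 of 9 without air 1). With members of at least 10000 UMIs left out, 8 of 9 astrocyte markers and all 9 cilia genes described next were lower (22.8% of all genes tested were).

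Genes of motile cilia separated into those the members kept in part and those they lacked. Of the 14 cilia and ependymal genes, 5 chose the ependymal-like cells and are given without a test, and the other 9 were all lower in members than in ependymal-like cells, with a median log2 fold change of -2.21. Against all other kept cells, 10 of the 14 were higher in members. The 2 lower calls were Dnah12 (-1.64 ± 0.51) and Tmem212, which had 3 UMIs in members and a ratio of other cells over members of 3.46 (1.18 to 16.8, counting error only). Both were lost without air 1 (adjusted p = 0.34 and 0.30), with library totals (adjusted p = 0.090 and 0.088) and in DESeq2 (adjusted p = 0.079 and 0.097), and that of Tmem212 also without air 3 (adjusted p = 0.058). Spef2, a sperm flagellar gene, was at 370, 551 and 386 CPM in members, 1137, 1249 and 1321 CPM in ependymal-like cells and 18.9, 20.5 and 18.6 CPM in other kept cells (-1.60 ± 0.26 and 3.89 ± 0.20). Dnah6 and Dnah11, dynein heavy chains of the cilium, gave log2 fold changes of -1.54 ± 0.25 and -2.21 ± 0.29 against ependymal-like cells, and both were higher than in other cells (Dnah6 by 4.17 ± 0.18). These genes lay between the levels of the other classes.

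A different set was near 0 in members. Tmem212 was at 0, 0 and 3.92 CPM in members and at 1176, 1191 and 1245 CPM in ependymal-like cells, with 3 UMIs in all members, a ratio of ependymal-like cells over members of 486 (166 to 2359, counting error only). Ccdc153 was at 5.48, 0 and 10.4 CPM against 247, 284 and 368 CPM (-5.33 ± 0.37). Dnah12, a gate gene of the ependymal-like cells, was at 0, 0 and 10.4 CPM against 2066, 2076 and 2546 CPM. Thinned to 2000 UMIs, Spef2 had a UMI in 54.6% of members, 88.7% of ependymal-like cells and 1.79% of microglia-like cells, Dnah6 in 42.2, 82.2 and 0%, and Tmem212 in 0, 89.2 and 0.714%. Foxj1, the master regulator of motile cilia, was at 30.1, 83.8 and 33.9 CPM in members and at 122, 105 and 164 CPM in ependymal-like cells (-1.85 ± 0.35), and this call was lost without air 1 (-1.64, adjusted p = 0.059) and without air 3 (-1.46, adjusted p = 0.13).

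The largest falls against ependymal-like cells were Gm10714, Ttc29, Lrrc36, T2 and Gm45783. Gm10714, Ttc29 and Gm45783 had no UMI in members and were at least 251-fold, 200-fold and 94.5-fold lower there. Lrrc36 and T2 had 1 UMI each in members and 782 and 711 UMIs in ependymal-like cells, ratios of ependymal-like cells over members of 951 (170 to 37626) and 865 (155 to 34214), counting error only.

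**Figure D5:**
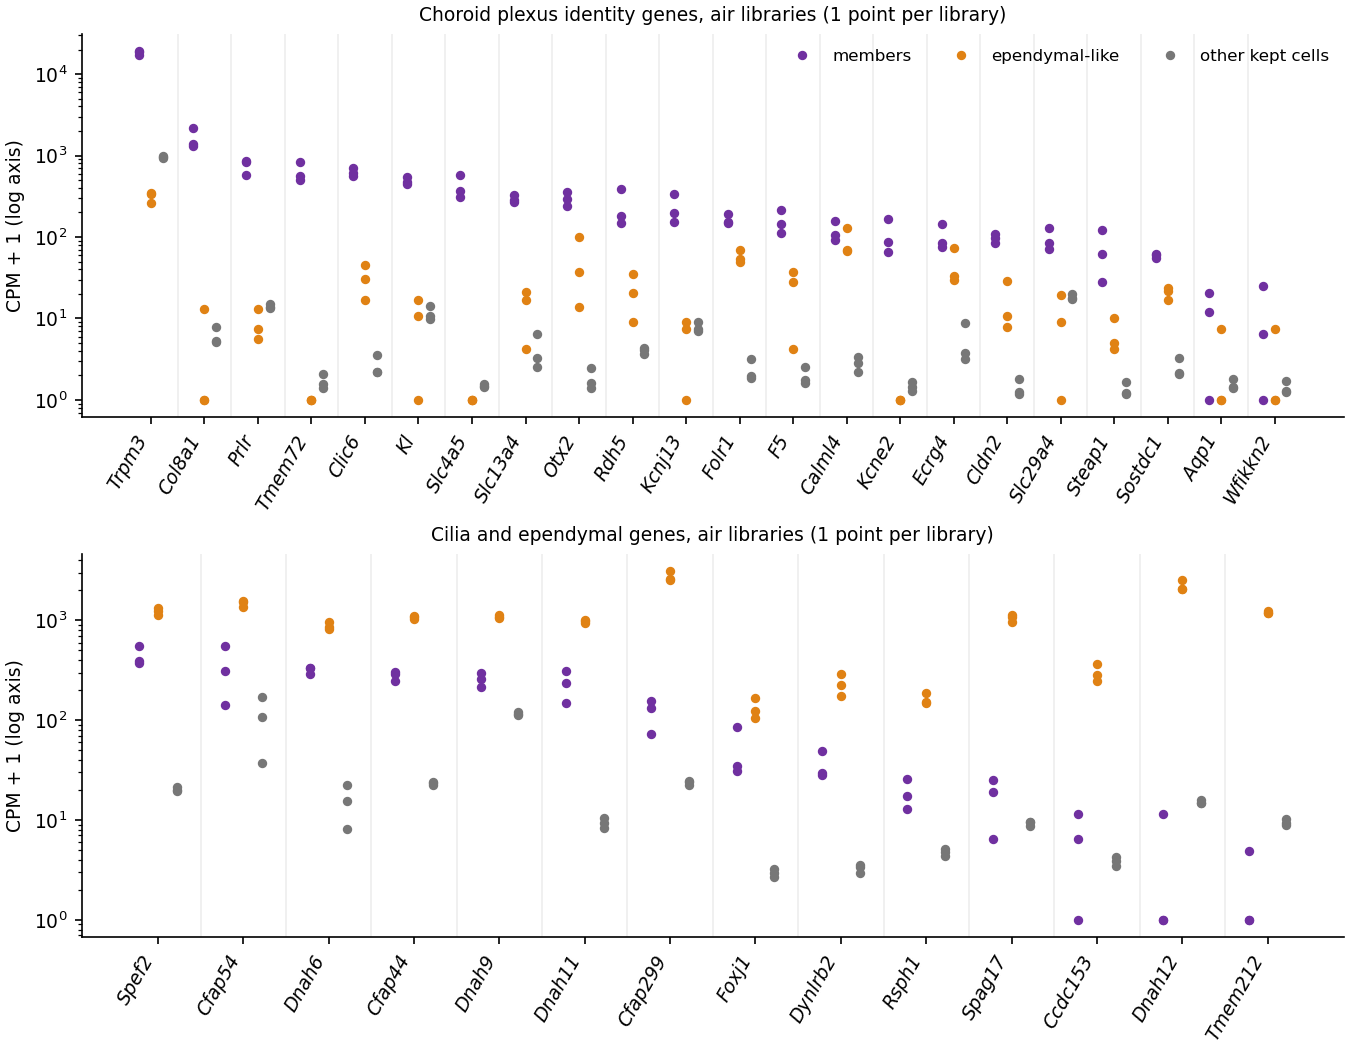
Level of each gene (CPM + 1, log axis) in members, ependymal-like cells and other kept cells, with 1 point for each air library; identity genes are above and cilia and ependymal genes below, ordered by mean level in members. Tmem72, Slc4a5 and Kcne2 are at 0 in ependymal-like cells, and Tmem212 and Dnah12 are at 0 in the members of air 1 and air 2.

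Among 190 genes with a mean of at least 1 UMI per cell thinned to 2000 UMIs, the median Fano factor (variance over mean, which is 1 for counting noise alone) was 1.37. For Ttr it was 2.80, 10.0 and 172 in air 1, 2 and 3, and air 3 held the member with 2812 Ttr UMIs. For Htr2c it was 8.30, 6.00 and 7.50. Ttr and Htr2c are gate genes, so the rule that chose the cells shapes their spread. For Trpm3, which the gate did not use, it was 4.42, 5.43 and 5.56. For the neuronal adhesion gene Lsamp it was 9.40, 1.67 and 10.2, and it was lowest in air 2, which held no member rich in neuron markers. The largest medians over the air libraries were those of the mitochondrial genes mt-Co3 (2.15, 14.5 and 16.0) and mt-Atp6 (3.57, 14.3 and 18.5). Across the air libraries, 9 of the 11 identity genes with at least 20 UMIs in each differed by less than 2-fold between libraries, and the largest ratio was 2.62, for Rdh5.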

How the data were processed

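The 6 10x Genomics libraries (3 sevoflurane, 3 air) were analysed from the deposited matrices of whole-number UMI counts, which per the file headers were written by Cell Ranger 6.1.1. The submitters' processing notes also name CASAVA 1.8 and Seurat. The genome build, annotation and use of strand are not given in the sources used here. Libraries held 54426522 to 70741809 UMIs over all deposited barcodes. Members and gene lists were chosen with earlier results of these data known. UMIs were summed per library and class and tested with edgeR 4.0.16 (R 4.3.3; TMM, filterByExpr, quasi-likelihood, library as block, Benjamini-Hochberg over all genes); SE is the log2 fold change over the root of F. CPM is UMIs per 1000000 UMIs of that class and library. The labels give 6 mice but do not tie each library to a mouse, so p-values rest on the spread between libraries, which may be technical. The quasi-likelihood test shares this spread across genes. Against other kept cells the edgeR adjusted p was, for example, 7.1e-248 for Tmem72 and 2.6e-319 for Slc4a5, with n = 3. The p-values and SE of that comparison therefore hardly reflect each gene's own spread between libraries. Named genes were list members plus the 15 largest rises and 5 largest falls against other cells and the 10 and 5 against ependymal-like cells (mean of at least 100 CPM; gate and mitochondrial genes left out). On simulated data, 50 of 50 4-fold and 6 of 50 2-fold rises were recovered for members against other cells (17377 genes). Falls to 0.25 and 0.5 of the level were recovered for 50 and 14 of 50 genes, and there were 8 false calls. The simulation gave every gene the same assumed spread, not fitted to these data. It therefore does not measure the power of the real test. Alternatives included DESeq2 1.42.0, other scaling, other gates and leaving out each library; doublets were kept and scored with Scrublet (scanpy 1.11.5). Same-numbered libraries of the groups did not deviate together (correlations -0.211, -0.112 and -0.0253). Some listed genes are counted in their lists but not reported here by name.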

Additional observations from a re-analysis of the deposited data

How the results depend on the processing

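The share of members was lower in sevoflurane under every gate, filter and denominator tried, a direction known when the cells were chosen. Without each replicate in turn the difference ranged from -1.21 to -0.539 points (exact permutation p = 0.2). As a replicate block (signs flipped over same-numbered libraries) it was -0.863 points with exact permutation p = 0.25. Each of these p-values is the smallest its design allows, so they do not measure a weaker difference. Genes passing against other kept cells numbered 5894, against 3628 with DESeq2 (46.6% higher), 6615 with no replicate block and 3321 to 5290 without each air replicate. Against ependymal-like cells 2302 passed, with 1293 in DESeq2, 2657 with no replicate block and 1147 to 2772 without each air replicate. Without a low-count filter these were 5410 and 2858 genes. Bnc2 against other kept cells was 1.08, and ranged from -0.75 (without air replicate 3) to 1.66 (without air replicate 1); its members were at 0 in air 2 and the cause was not tested. Of the named calls, 32 against other cells were lost without air 1 and 19 without air 3, and 16 and 18 against ependymal-like cells; DESeq2 lost 19 and 10. Omitting deep members, a gate on other identity genes and library totals were chosen after seeing the data. Members of air 2 number 16, which limits the precision of low genes.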
